A study of Mus musculus with 24 samples.

Results

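The Nfkb1 circular RNA is a closed transcript whose junction joins exon 6 back to exon 2 of the gene for an NF-kB subunit. It was found by taking every row of the deposited table whose junction ends matched exon edges of Nfkb1 on the same strand. That rule gave 1 circular RNA of the 1717 in the table, measured in all 24 libraries. Nfkb1 was selected on its normalized junction reads in TAC against sham, averaged over the 3 times, which earlier results of these same data had shown to be higher in TAC. Its values in that contrast, at each time and in the average, are therefore a description and carry no test. The libraries came from cardiac fibroblasts of male C57BL/6J mice, isolated from perfused and digested hearts after transverse aortic constriction (TAC), in which a ligature narrows the aorta and loads the heart, or after sham surgery with the suture left untied. Mice were 8 weeks old at surgery, while the growth note gives animals bought at 8 to 10 weeks. At 1 week there were 4 TAC and 4 sham libraries, at 4 weeks 4 TAC and 5 sham libraries, and at 8 weeks 3 TAC and 4 sham libraries. Sham replicates 1 and 2 at 4 weeks carry sample descriptions in another form than the other libraries, and the labels do not say why. Whether each library stands for an animal of its own is not stated in the labels, so the p-values below reflect library-to-library spread, part of which may be technical.

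NF-kB is a family of dimeric transcription factors that switches on inflammatory cytokine, chemokine, adhesion and survival genes. Nfkb1 encodes the precursor p105, which the proteasome trims to the DNA-binding subunit p50; p105 itself also holds other subunits in the cytoplasm, as the IkB inhibitors do. In the heart the pathway is known for its activation by injury, cytokines and mechanical load, in fibroblasts, muscle cells and leukocytes alike. A circular RNA forms when the end of a downstream exon is spliced back to the start of an upstream one, and its reads are recognised by that back-splice junction. Such reads say nothing about the level of the linear mRNA or of the protein, and the table holds no linear reads.

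The junction joined the end of exon 6 to the start of exon 2 (mm10, chr3:135655500-135669339, minus strand). The 30 bases around it are shown as the annotated exons give them, since reads of the circle cross this junction. The linear junction of exons 6 and 7 is set beside it, since both share the last 15 bases of exon 6, in lower case, and differ in the exon that follows, in capitals.
Back-splice junction, exon 6 to exon 2: tacccacaggtcaaaGTACCCTCAGAGGCC
Linear junction, exon 6 to exon 7: tacccacaggtcaaaATTTGCAACTATGTG
Only the junction was observed, so the exons between its ends are those of the annotation, and skipped exons or retained introns would not be seen. The gene's start codon lies in exon 3, so a circle of all the annotated exons 2 to 6 carries it. Of the 326 bases of such a circle, 77 were untranslated bases of exons 2 and 3 and 249 were coding, in 83 whole codons of the p105 reading frame. The coding bases are printed from the start codon, in capitals, to the end of exon 6.
Coding bases of exons 3 to 6: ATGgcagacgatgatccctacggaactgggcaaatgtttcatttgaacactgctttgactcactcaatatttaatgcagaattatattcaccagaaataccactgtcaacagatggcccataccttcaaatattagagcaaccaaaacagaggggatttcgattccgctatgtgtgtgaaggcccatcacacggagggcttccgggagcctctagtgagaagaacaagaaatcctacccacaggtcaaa
Read round such a circle from that start codon, the frame crossed the back-splice junction and reached a TGA stop after 123 codons, 40 of them past the junction. This is a property of the letters, and no translation was measured. Sequences and exons are those of the GENCODE M21 transcript with 25 exons that matched both ends of the junction, on the same build as the table.

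**Figure D1:**
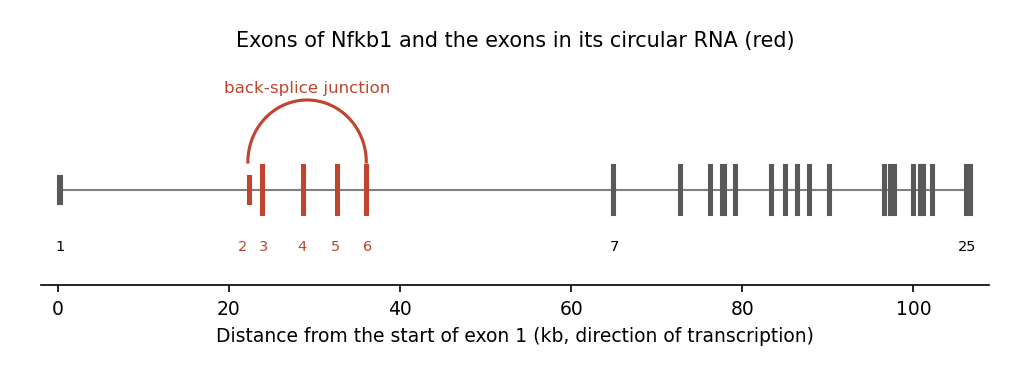
Exons of Nfkb1 along the gene, with the distance from the start of exon 1 in kb on the x axis; tall boxes hold coding bases, low boxes do not, exons of the circular RNA are red, and very short exons are drawn at a minimum width. The 5 annotated exons of the circle sit between the intron before exon 2, of 21783 bases, and the intron after exon 6, of 28756 bases.

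Both introns that flank the circle were longer than the median. Only the one after exon 6 was above the upper quartile, which was 20773 bases for introns after and 25360 for introns before a circle. The intron before exon 2 spanned 21783 bases, against a median of 11063 bases over the 1655 circular RNAs with an annotated upstream intron, of which 70.6% had a shorter one. The intron after exon 6 spanned 28756 bases, against a median of 9556 bases over 1657 circular RNAs, of which 83.5% had a shorter one. With 5 annotated exons the circle had more than the median of 3, yet its 326 exonic bases were below the median of 420, since its exons were short, at 38 to 99 bases. A start at exon 2 was common, in 571 of 1666 circular RNAs with both ends at exon edges (34.3%). Holding both coding and untranslated bases was less so, with 252 of the same 1666 (15.1%).

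Nfkb1 was the seventh most abundant circular RNA in the table, at a mean of 0.565% of all junction reads and 789 reads in all. It was the only circular RNA of its host, as was the case for 6 of the 20 most abundant. Every library held at least 8 of its reads. Depth was low: 277 of 1717 circular RNAs (16.1%) had a read in every library, the median was 2 reads per circular RNA and library, and libraries held 3595 to 9146 junction reads. Its levels below are normalized reads, the authors' scaled junction reads with a constant of 0.01 taken off; a read was worth 0.642 to 1.57 of them, depending on the library.

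At 1 week the Nfkb1 circular RNA measured 35.4, 57.5, 41.9 and 45.7 normalized reads in the TAC libraries, replicates 1 to 4, against 10.0, 36.2, 33.1 and 23.8 in the sham libraries. In 3 of 4 TAC libraries it was above every sham library, and the groups overlapped only in that sham replicate 2 lay above TAC replicate 1. The means were 45.1 ± 9.29 in TAC and 25.8 ± 11.7 in sham (SD, n = 4 each), a ratio of 1.75. On the log2(normalized reads + 0.5) scale the difference was 0.92 ± 0.31 (SE), with a median of 0.039 over all 1717 circular RNAs. Sham replicate 1, at 8 reads the lowest of the 24 libraries, carried much of the size: without it the difference was 0.53.

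At 4 weeks the values were 44.8, 27.1, 46.5 and 31.5 normalized reads in TAC, replicates 1 to 4, against 18.7, 29.9, 39.0, 15.3 and 23.0 in sham, replicates 1 to 5. The groups overlapped more than at 1 week, since sham replicates 2 and 3 lay above TAC replicate 2. Means were 37.5 ± 9.62 in TAC (SD, n = 4) and 25.2 ± 9.48 in sham (n = 5), a ratio of 1.49 and a log2 difference of 0.61 ± 0.30 (SE), with a median of 0.12 over all circular RNAs.

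At 8 weeks the values were 47.9, 38.8 and 32.6 normalized reads in TAC, replicates 1 to 3, against 26.6, 17.6, 17.3 and 35.0 in sham, replicates 1 to 4. Sham replicate 4 alone reached into the TAC range. Means were 39.8 ± 7.70 in TAC (SD, n = 3) and 24.1 ± 8.43 in sham (n = 4), a ratio of 1.65 and a log2 difference of 0.75 ± 0.34 (SE), with a median of 0.030 over all circular RNAs.

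**Figure D2:**
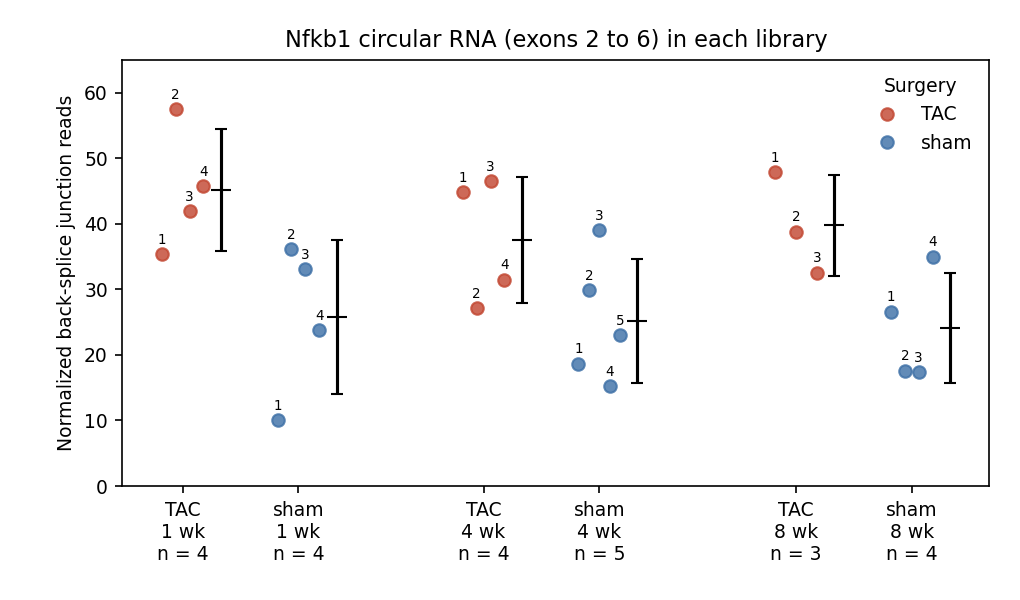
Normalized back-splice junction reads of the Nfkb1 circular RNA (y axis) in each library, by surgery and week; points are libraries with their replicate number, and black bars give the mean and SD of the group. TAC means of 37.5 to 45.1 lie above sham means of 24.1 to 25.8, and single libraries of both surgeries overlap at each time.

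Over the 3 times, 11 of 11 TAC libraries lay above the sham mean of their own week and 7 of 11 above every sham library of that week. Of the 48 pairs of a TAC with a sham library of the same week, TAC was higher in 43. The log2 difference averaged over the 3 times was 0.76 ± 0.18 (SE), against a median of 0.062 over all circular RNAs. Nfkb1 was among the 6 that limma called higher in this average, with 5 called lower, or 0.349% and 0.291% of the 1717 and 0.641% in all; since this contrast chose the gene, nothing is read from that call. Without sham 1-week replicate 1 the averaged difference was 0.63.

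Ordered by their mean, the groups ran TAC at 1 week (45.1), TAC at 8 weeks (39.8), TAC at 4 weeks (37.5), sham at 1 week (25.8), sham at 4 weeks (25.2) and sham at 8 weeks (24.1 normalized reads). Neighbours within the TAC groups and within the sham groups differed by less than the SD of either group. The widest step, between TAC at 4 weeks and sham at 1 week, compared groups of different weeks, with SDs of 9.62 and 11.7.

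As a share of all junction reads, the Nfkb1 circular RNA took 0.806 ± 0.150% in TAC and 0.447 ± 0.206% in sham at 1 week, 0.644 ± 0.168% in TAC and 0.440 ± 0.171% in sham at 4 weeks, and 0.696 ± 0.146% in TAC and 0.422 ± 0.150% in sham at 8 weeks. The highest single share was 1.00% in TAC 1-week replicate 2 (60 of 5977 reads, exact Clopper-Pearson 95% interval 0.767 to 1.29%). The lowest was 0.168% in sham 1-week replicate 1 (8 of 4762 reads, 0.0726 to 0.331%). These intervals cover counting error only. They belong to the extremes of all 24 libraries, so no comparison is drawn between them. By rank within its library, Nfkb1 stood between place 2 and place 13 in the 11 TAC libraries, median 5, and between place 6 and place 102 in the 13 sham libraries, median 15.

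The spread between libraries of a group went beyond counting error. The sum of squared deviations of reads from an equal share within groups, over that expected from counting alone, was 3.13 for Nfkb1, where 1 is counting error only. By group the ratio was 1.34 in TAC and 4.45 in sham at 1 week, 3.49 in TAC and 4.05 in sham at 4 weeks, and 1.71 in TAC and 2.95 in sham at 8 weeks. Among the other 16 of the 17 most abundant circular RNAs it ran from 1.24 for Rad52, a DNA repair gene, to 8.85 for Nfix, a nuclear factor I transcription factor, so that Nfkb1 stood inside their range.

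Contrasts between times were not used to choose the gene and were tested. With limma and Benjamini-Hochberg adjustment over all 1717 circular RNAs, no change of the Nfkb1 circular RNA between weeks passed an adjusted p of 0.05. Within TAC, the log2 difference was -0.28 ± 0.31 (SE) at 4 against 1 week (95% interval -0.89 to 0.33, adjusted p = 0.951), -0.18 ± 0.34 at 8 against 1 week (-0.84 to 0.49, adjusted p = 0.927) and 0.10 ± 0.34 at 8 against 4 weeks (-0.56 to 0.76, adjusted p = 0.997). Limma called 0% of all circular RNAs in each of these 3 contrasts, with 88, 129 and 71 (5.13%, 7.51% and 4.14%) at an unadjusted p under 0.05; limma-voom called 1, 0 and 0, without Nfkb1. Without TAC 4-week replicate 2 or TAC 8-week replicate 1 the last difference turned to -0.038. The intervals reach -0.89 and 0.76, so a change between weeks about as large as the TAC difference lies within them.

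Within sham, the Nfkb1 differences were nearer 0. They were 0.039 ± 0.30 (SE) at 4 against 1 week (95% interval -0.54 to 0.62, adjusted p = 0.978), -0.0054 ± 0.31 at 8 against 1 week (-0.62 to 0.61, adjusted p = 0.997) and -0.045 ± 0.30 at 8 against 4 weeks (-0.63 to 0.54, adjusted p = 0.985; limma). The share of all circular RNAs called was 0% at 4 against 1 week, 0.116% at 8 against 1 week and 0% at 8 against 4 weeks. At an unadjusted p under 0.05 there were 130, 129 and 119 (7.57%, 7.51% and 6.93%), and limma-voom called 0, 2 and 0. Without sham 1-week replicate 1 the differences at 4 and at 8 against 1 week were -0.35 and -0.39, and other single libraries also turned the sign of these small values.

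Whether the difference between TAC and sham itself changed with time was tested as an interaction. It did not pass in any of the 3 contrasts: the TAC effect differed by -0.32 ± 0.43 (SE) between 4 weeks and 1 week (95% interval -1.16 to 0.53, limma adjusted p = 0.930), by -0.17 ± 0.46 between 8 weeks and 1 week (-1.07 to 0.73, adjusted p = 0.955) and by 0.15 ± 0.45 between 8 and 4 weeks (-0.73 to 1.03, adjusted p = 0.978). Here too 0% of all circular RNAs were called in each, with 138, 148 and 109 (8.04%, 8.62% and 6.35%) at an unadjusted p under 0.05, while limma-voom called 0, 3 and 3, without Nfkb1. Sham 1-week replicate 1 set the sign of the first 2: without it they were 0.071 and 0.22. Without sham 8-week replicate 4 the second was 0.025, and without sham 4-week replicate 3 the third was -0.028. Each interval includes 0 and, on one side, a difference as large as the averaged TAC difference. On simulated reads for the 1-week contrast, limma called 12% of circular RNAs with a true log2 change of 1 and 76% of those with a change of 2. That simulation compared 4 with 4 libraries, over circular RNAs with a mean of at least 5 normalized reads. Its percentages therefore do not say how often an interaction, or a change of Nfkb1, would be called.

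**Figure D3:**
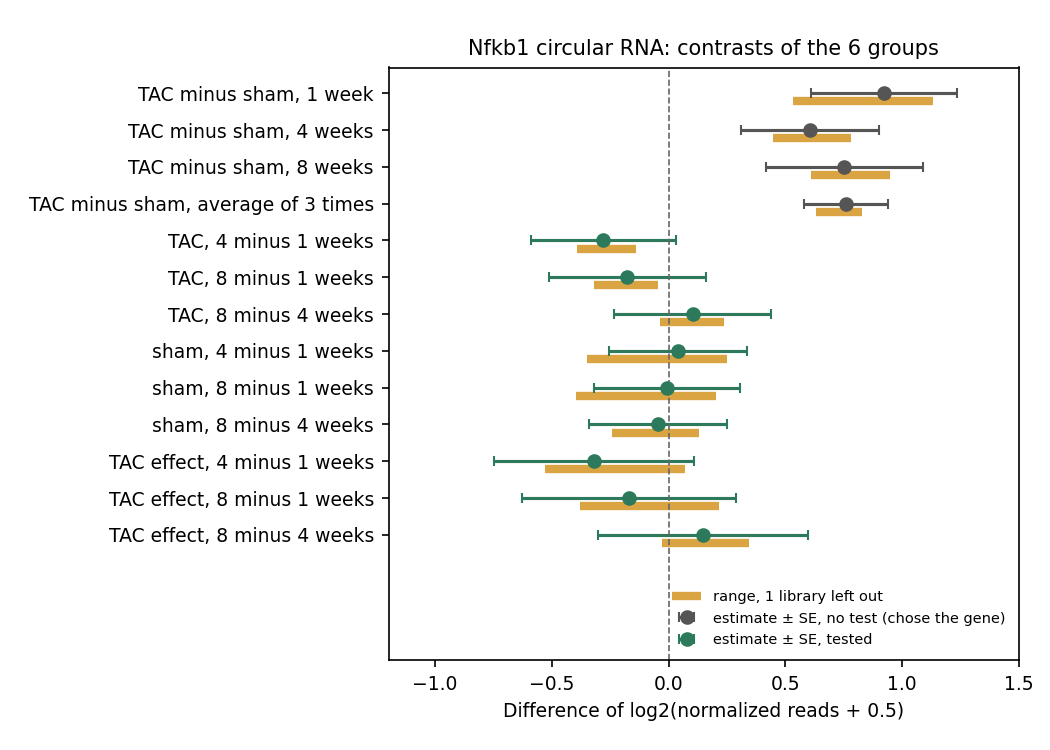
Differences of log2(normalized reads + 0.5) for the Nfkb1 circular RNA in 13 contrasts; points and bars give the estimate and its SE, grey where the contrast chose the gene and has no test, green where it was tested, and ochre bars the range over fits that each lack 1 of the 24 libraries. Differences of TAC minus sham lie at 0.61 to 0.92, while those between weeks and between TAC effects lie within 0.32 of 0, with SEs of 0.30 to 0.46.

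The NF-kB pathway lists, drawn up by role, held 126 other gene symbols, some of them aliases of one gene. Of these, 10 had a circular RNA in the table, with 13 circular RNAs in all. No circular RNA came from the other subunit genes Nfkb2, Rel, Rela and Relb, the IkB inhibitor genes, the receptor genes (Toll-like, interleukin-1 and TNF receptors among them) or the target genes listed. The most abundant of the 13, that of Itch, a ubiquitin ligase that restrains the pathway with A20, averaged 3.18 normalized reads, and Nfkb1 averaged 32.3, or 10.2 times as much. Each circular RNA is counted at a single junction, so these levels need no scaling by length. The 13 were read in 13 to 22 of the 24 libraries, with at most 10 reads in any. Their means of 1.18 to 3.18 normalized reads lay around the median of 1.80 over all 1717 circular RNAs.

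None of the 13 passed limma between TAC and sham at any week or in the average, with 0 higher and 0 lower in each; by limma-voom the count was 0 as well. The share called over all circular RNAs was 1.46% at 1 week (0.757% higher and 0.699% lower), 0.116% at 4 weeks, 0% at 8 weeks and 0.641% in the average. At an unadjusted p under 0.05 there were 2 of the 13 at 1 week and 0 at 4 weeks, at 8 weeks and in the average, against 11.7%, 7.98%, 6.06% and 9.9% of all circular RNAs, so the count at 1 week was near the background. Positive differences were found for 7 of 13 at 1 week, 12 at 4 weeks, 7 at 8 weeks and 8 in the average, against 51.9%, 56.4%, 51.4% and 55.9% of all circular RNAs. Their median log2 differences were 0.18, 0.71, 0.11 and 0.19, against 0.039, 0.12, 0.030 and 0.062 over all. With a pseudocount of 0.1 or 1 in place of 0.5, the median at 4 weeks was 1.33 or 0.50, with 12 or 10 of 13 positive. With 1 library left out, 9 to 12 of 13 were positive at 4 weeks, with medians of 0.45 to 0.90. With the replicate number as a block, 9 were positive, with a median of 0.61.

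Among the upstream kinases and their scaffolds, Map3k3, which encodes a kinase that can activate the IKK complex, measured 2.74 ± 1.28 normalized reads in TAC and 0.570 ± 0.664 in sham at 1 week (SD, n = 4 each; log2 difference 1.73, limma adjusted p = 0.351), from 10 and 2 reads in all. At 4 weeks it measured 1.98 ± 0.986 in TAC and 0.952 ± 0.723 in sham, and at 8 weeks 0.572 ± 0.990 in TAC and 1.31 ± 0.543 in sham, where the difference was -1.10 (adjusted p = 0.887). Tank, a scaffold of the IKK-related kinases, averaged 1.68 normalized reads over all libraries and differed by 0.52 ± 0.48 (SE) in the average (adjusted p = 0.766). Of the adaptors, Traf3, which holds back the noncanonical branch of the pathway, differed by -0.25 ± 0.47 in the average (adjusted p = 0.953). Irak3, an inhibitory member of the interleukin-1 receptor-associated kinases, differed by 0.19 ± 0.47 (adjusted p = 0.973).

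Of the ubiquitin ligase genes, Birc2, which encodes cIAP1, had 0 reads in the 4 TAC libraries at 1 week and 5 reads in the 4 sham libraries (adjusted p = 0.343). At 8 weeks it had 10 reads in 3 TAC libraries and 4 in 4 sham libraries. Skp1a, a subunit of the SCF ligase that marks IkB for degradation, differed by 0.75 ± 0.47 in the average (limma adjusted p = 0.599), the smallest adjusted p of the 13 there. Itch measured 1.61 ± 1.24 normalized reads in TAC and 3.71 ± 2.72 in sham at 1 week, 3.76 ± 2.09 in TAC and 1.87 ± 2.19 in sham at 4 weeks, and 3.25 ± 0.959 in TAC and 5.20 ± 2.36 in sham at 8 weeks. The coactivator genes Crebbp, Ep300 and Ncoa3, whose products bind NF-kB in the nucleus, held 6 of the 13 circular RNAs, with averaged differences of -0.38 (Ep300) to 0.50 (Crebbp) and none called.

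Between weeks the 13 gave no call in any of the 6 contrasts within TAC or within sham, or in the 3 differences of the TAC effect. At an unadjusted p under 0.05 there were 2 at 8 against 1 week in TAC, 1 at 4 against 1 week and 2 at 8 against 4 weeks in sham, and 1 and 2 in the differences of the TAC effect at 4 and at 8 against 1 week. Those counts of 1 or 2 of 13 stand against 7.51%, 7.57%, 6.93%, 8.04% and 8.62% of all circular RNAs in the same 5 contrasts. Birc2 had the smallest adjusted p among them, 0.293, in the difference of the TAC effect between 8 weeks and 1 week. A start at exon 2, as in Nfkb1, was found in 6 of the 13.

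Circular RNAs of marker genes of other cell types were also present. The leukocyte list had circular RNAs for 7 of 25 genes, 22 in all, led by Adgre1, the macrophage receptor F4/80. Ptprc, Csf1r, Cd68 and Itgam had none. The cardiomyocyte list had 10 circular RNAs from 5 of 20 genes, led by Ttn of the sarcomere, and the endothelial list 7 from 4 of 16, led by Pecam1. The fibroblast list had 6 from 5 of 20, led by Svep1, an extracellular matrix protein, with none for Pdgfra, Tcf21, Col1a1 or Col1a2. A mural circular RNA, of Abcc9, summed to 0 to 11.0 normalized reads per library.

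The lowest and the highest sham value of Nfkb1 came from libraries at an end of their own group's summed leukocyte circular RNAs, but not every other library followed. In each TAC group, the library lowest in Nfkb1 had the group's highest leukocyte sum. These were 1-week replicate 1 (148), 4-week replicate 2 (121) and 8-week replicate 3 (109). At 4 and 8 weeks the TAC library highest in Nfkb1 had the lowest sum, 48.7 in replicate 3 and 93.4 in replicate 1. At 1 week it did not: replicate 2, the highest, had 131, and the lowest sum, 71.0, was in replicate 4. At 1 week the leukocyte sums were 71.0 to 148 normalized reads in the TAC libraries, and in sham replicates 1 to 4 they were 172, 74.8, 70.6 and 88.9. The sham library lowest in Nfkb1, at 10.0, thus had the highest leukocyte sum of all 24 libraries, and its fibroblast sum of 27.6 was the highest of the sham libraries. At 4 weeks the sums were 48.7 to 121 in TAC, and in sham replicates 1 to 5 they were 135, 171, 88.5, 156 and 127, with the lowest in replicate 3, which was highest in Nfkb1 and in the cardiomyocyte sum (123). Replicate 2 did not follow this: it had the highest leukocyte sum and the second highest Nfkb1 value of its group. At 8 weeks the sums were 93.4 to 109 in TAC and, in sham replicates 1 to 4, 101, 97.9, 143 and 124. Sham replicate 3, the lowest of its group in Nfkb1 at 17.3, had the highest leukocyte sum. Replicate 2, almost as low in Nfkb1 at 17.6, had the lowest leukocyte sum, and replicate 4, the highest in Nfkb1, had the second highest. The part of leukocyte content in the Nfkb1 values was not tested.

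The cardiomyocyte sums were lower in TAC at each week. They were 21.4 to 32.3 normalized reads in TAC and 38.3 to 135 in sham at 1 week, 16.0 to 39.2 in TAC and 39.6 to 123 in sham at 4 weeks, and 42.0 to 50.1 in TAC and 57.7 to 120 in sham at 8 weeks, with no overlap at any of the 3. Much of each sum came from 1 circular RNA of Ttn, at 9.19 ± 2.48 in TAC and 31.3 ± 19.9 in sham at 1 week. Its values were 11.1 ± 4.53 in TAC and 31.3 ± 12.0 in sham at 4 weeks, and 21.5 ± 3.80 and 45.0 ± 17.8 at 8 weeks. Sums without Ttn were not compared. Of the 10 circular RNAs, 2 were called lower at 1 week, 2 at 4 weeks, 0 at 8 weeks and 2 in the average, against 0.699%, 0.116%, 0% and 0.291% of all circular RNAs. Those called at 4 weeks and in the average were 2 circular RNAs of Ttn that share an end, at exon 120. At 1 week they were 1 of Ttn and 1 of Ryr2. Differences were positive for 3, 2 and 2 of the 10 at 1, 4 and 8 weeks, and for 1 in the average. Cacna1c was higher in TAC at each week, by log2 differences of 0.50, 0.54 and 0.56, with no call. Endothelial sums overlapped, at 9.98 to 18.5 in TAC and 7.54 to 20.7 in sham at 1 week, 18.6 to 23.1 in TAC and 13.2 to 22.1 in sham at 4 weeks, and 18.9 to 20.4 in TAC and 9.62 to 23.1 in sham at 8 weeks. Fibroblast sums were 13.6 to 29.2 in TAC and 11.2 to 27.6 in sham at 1 week, 21.1 to 22.5 in TAC and 13.1 to 21.4 in sham at 4 weeks, and 18.0 to 26.3 in TAC and 5.32 to 19.2 in sham at 8 weeks. Of the 6 fibroblast circular RNAs, 1 of the 2 of Svep1 was called higher in the average (log2 difference 1.22, limma adjusted p = 0.0124), against 0.349% of all, and 0 at single weeks. It measured 14.0 ± 4.20 in TAC and 4.55 ± 1.46 in sham at 1 week, 11.8 ± 1.90 in TAC and 5.88 ± 2.66 in sham at 4 weeks, and 10.5 ± 4.50 in TAC and 5.64 ± 3.53 in sham at 8 weeks, and so was higher in TAC by its means at each week, as Nfkb1 was. The list as a whole was mixed. Of the 6, 3 had a positive difference at 1 week, 3 at 4 weeks, 4 at 8 weeks and 3 in the average. Their median log2 differences were -0.36, 0.08, 0.56 and -0.04. In such bulk libraries fewer cells of a type and less RNA per cell cannot be told apart, and the part of any of these sums in the Nfkb1 difference was not tested.

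**Figure D4:**
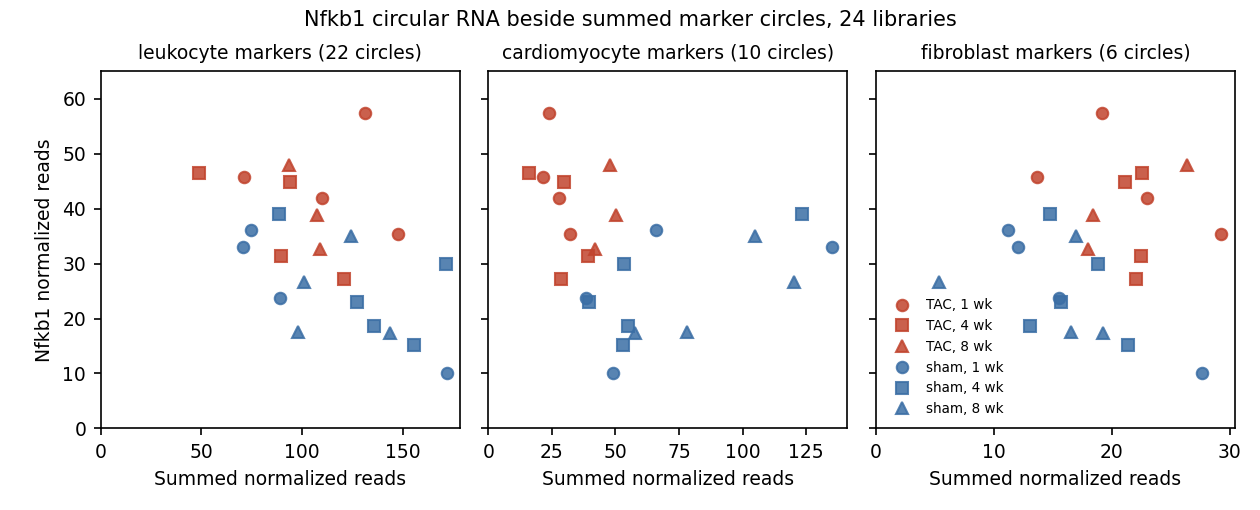
Nfkb1 normalized reads (y axis) against the summed normalized reads of the leukocyte, cardiomyocyte and fibroblast marker circular RNAs (x axes) in the 24 libraries; colours give surgery and shapes give week. The sham library at 10.0 Nfkb1 reads has the highest leukocyte sum, 172, and the cardiomyocyte sums of TAC libraries lie at 50.1 or below.

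The cell cycle list had 7 circular RNAs of Ezh2, Bub1b and Cdkn3, and its sums were 63.9 to 87.6 normalized reads in TAC and 16.5 to 30.1 in sham at 1 week, 29.5 to 39.9 in TAC and 17.3 to 46.9 in sham at 4 weeks, and 23.5 to 38.3 in TAC and 15.4 to 47.7 in sham at 8 weeks. Limma called 3 of the 7 higher at 1 week, against 0.757% of all circular RNAs, and 0 at the later weeks and in the average (0%, 0% and 0.349% of all). Itgbl1, the only gene of the activated fibroblast list with a circular RNA, measured 1.92 to 16.0 in TAC and 0 in every sham library at 1 week, 1.69 to 12.3 in TAC and 0 to 1.87 in sham at 4 weeks, and 0 to 7.18 in TAC and 0.962 to 3.30 in sham at 8 weeks. It was called higher at 1 week (limma adjusted p = 0.0075) and in the average (0.0485), while its log2 difference at 8 weeks was -0.15.

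The circular RNAs whose levels followed Nfkb1 most closely were sought among the 271 others with a mean of at least 5 reads, by Pearson's r of log2(normalized reads + 0.5) over the 24 libraries. The 5 highest were Aff3 (r = 0.74, Spearman's rho 0.83), Mettl9 (r = 0.72, rho 0.67), Ezh2 exons 2 and 3 (r = 0.67, rho 0.69), Usp3 (r = 0.64, rho 0.52) and Phkb (r = 0.63, rho 0.44), against a median r of -0.022. They are the highest of 271 values and all points share the same libraries, depths and groups, so no p is given. Mettl9 had 0 reads in its lowest library, and the weight of single libraries on these r values was not tested. Aff3, a member of the AF4/FMR2 family of nuclear proteins, measured 12.9 ± 3.82 normalized reads in TAC and 4.14 ± 2.47 in sham at 1 week, 6.66 ± 1.25 in TAC and 4.85 ± 2.80 in sham at 4 weeks, and 9.34 ± 5.52 in TAC and 2.41 ± 1.81 in sham at 8 weeks. Ezh2, the methyltransferase of Polycomb repressive complex 2, had its widest gap at 1 week, with 38.4 ± 12.5 in TAC and 12.5 ± 5.12 in sham, but 14.7 ± 7.22 in TAC and 19.2 ± 9.41 in sham at 8 weeks, where Nfkb1 was the higher in TAC.

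**Figure D5:**
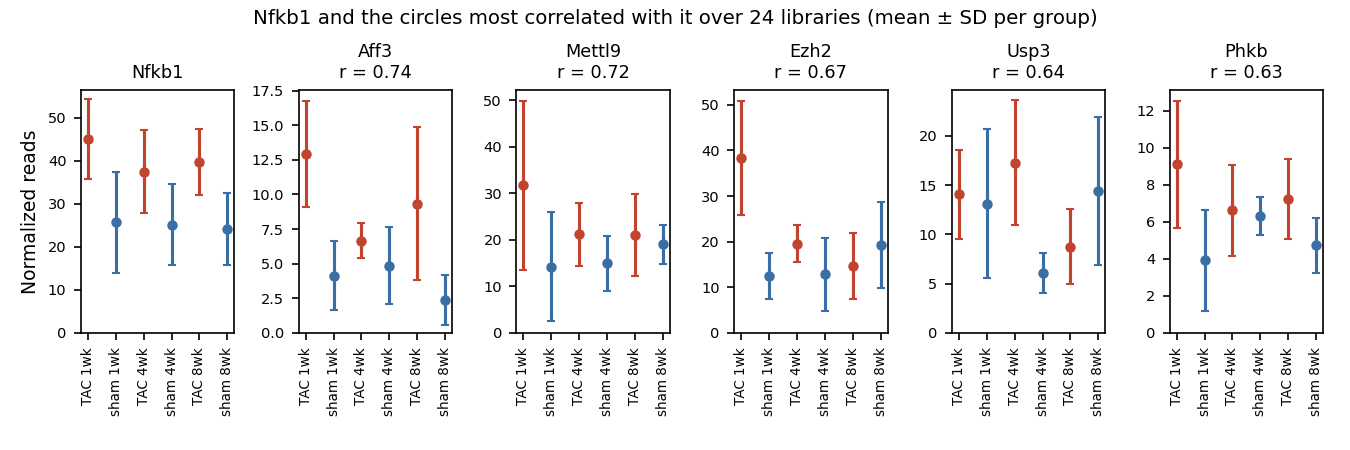
Normalized reads (y axis, a scale of its own for each panel, starting at 0) of Nfkb1 and the 5 circular RNAs with the highest Pearson r to it over 24 libraries; points and bars give the mean and SD of each group, red for TAC and blue for sham. Nfkb1, Aff3, Mettl9 and Phkb have a higher TAC than sham mean at all 3 weeks, and Ezh2 and Usp3 do not at 8 weeks.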

How the data were processed

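Total RNA depleted of ribosomal RNA was sequenced as stranded paired-end libraries, per the labels' protocols. Per the submitters' processing notes FastQC, Trimmomatic, STAR and build mm10 were used; for the circular RNA caller, its filters and the normalization, no setting or version was found in these sources. The deposited signal is scaled, not raw: with 0.01 subtracted, values in a library were whole-number multiples of 1 step (100% of them within 0.001 of a read, beside the file's rounding), which gave reads per library. Columns were matched to samples through the sample descriptions. Hosts and exons came from GENCODE M21. The main test was limma 3.58.1 (R 4.3.3; variance trend on mean level) on log2(normalized reads + 0.5) over 24 libraries in 6 groups, adjusted by Benjamini-Hochberg over 1717 circular RNAs per contrast; its settings were tested on simulated data. SDs and intervals used Python 3.11.15. Alternatives covered pseudocounts, scaling, limma-voom, a filter, the replicate number and libraries left out. The gene, lists, contrasts and naming rule (every circular RNA of Nfkb1; pathway circular RNAs called, of named roles or abundant; the 5 most correlated; the most abundant markers) were chosen with earlier results of these data known.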

Additional observations from a re-analysis of the deposited data

How the results depend on the processing

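The differences of TAC minus sham for Nfkb1 stayed positive under every alternative run. These runs reused the libraries and the contrast that chose the gene, so the constant sign is a description and no support for the difference. With 1 library left out they ranged from 0.53 to 1.13 at 1 week, 0.45 to 0.78 at 4 weeks, 0.61 to 0.95 at 8 weeks and 0.63 to 0.83 in the average, and under the other settings from 0.91 to 1.07, 0.59 to 0.72, 0.68 to 0.95 and 0.75 to 0.82. Those other settings included a fit without both differently described 4-week sham libraries. None of the 291 tested values of Nfkb1 between weeks or between TAC effects passed (adjusted p 0.711 to 1.00). Contrasts near 0 changed sign: with TMM scaling -0.039 for TAC at 8 against 4 weeks, 0.12 for sham at 8 against 1 week and -0.015 for the TAC effect at 8 against 4 weeks; with limma-voom -0.035, 0.14 and -0.016 for the same 3; with total junction reads 0.0092 for sham at 8 against 1 week. The cause was not tested. With 1 library left out the ranges were -0.39 to -0.14, -0.32 to -0.043 and -0.038 to 0.24 within TAC (4 against 1, 8 against 1, 8 against 4 weeks), -0.35 to 0.25, -0.39 to 0.20 and -0.24 to 0.13 within sham, and -0.53 to 0.071, -0.38 to 0.22 and -0.028 to 0.34 for the TAC effects. TMM moved the median of all circular RNAs to -0.19 for TAC at 8 against 4 weeks, against -0.090 before, and to -0.23 for the TAC effect at 8 against 4 weeks, against -0.11 before. Over all circular RNAs, the 25 calls of TAC against sham at 1 week became 4 in a fit of that week alone and 6 to 32 with 1 library left out. The 2 at 4 weeks, with 0 higher in TAC, became 14 in a fit of that week alone, 10 with limma-voom, 6 with TMM or a pseudocount of 1 (3 of them higher in each), and 0 to 7 with 1 library left out. The 11 in the average became 5 with a pseudocount of 0.1, 17 with limma-voom and 4 to 17 with 1 library left out. For the TAC effect at 8 against 1 week, 0 became 2 with a pseudocount of 1 and up to 8 with 1 library left out. Pathway calls were 0 in all 413 pairs of a setting and a contrast in which its circular RNAs were tested; with a mean of at least 5 reads required, none of the 13 was tested. Same-numbered libraries of different groups had a correlation of deviations over 0.1 in 15 of 55 pairs (median 0.0070). Within a week it was 7 of 11 same-numbered pairs (-0.19 to 0.257, median 0.155), against 4 of 37 others. It was not over 0.1 in every pair, and the labels state no pairing. The numbers used here and for the blocks below are the replicate numbers of the sample titles. The sample descriptions number the sham libraries of 4 and 8 weeks otherwise or not at all. A pairing by those other numbers was not tested. With the replicate number as a block the averaged TAC difference was 0.75. With a block of week and number, chosen after seeing the data, it was 0.82, and 0.92, 0.59 and 0.95 at 1, 4 and 8 weeks; the TAC effects differed by -0.33, 0.025 (a change of sign) and 0.36 (4 against 1, 8 against 1, 8 against 4 weeks). Neither block changed a tested call of Nfkb1 or of the pathway. The planned negative-binomial count tests were not run; limma-voom on the recovered reads was. Depth limits the pathway more than Nfkb1: its 13 circular RNAs had at most 10 reads in any library.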

Other observations

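With the group means subtracted, so that only the variation between libraries of a group remained, the circular RNAs with the highest Pearson r to Nfkb1 over 24 libraries were those of Usp3, a deubiquitinase gene (r = 0.79, rho 0.71), Mettl9, a methyltransferase gene (r = 0.75, rho 0.65), Esco1, a cohesin acetyltransferase gene (r = 0.72, rho 0.68), Setd3, a histidine methyltransferase gene (r = 0.62, rho 0.69), and Ezh2 (r = 0.61, rho 0.58), against a median of -0.0040 over 271. Usp3, Mettl9 and Ezh2 were also among the 5 highest before the subtraction. Usp3 differed from Nfkb1 between the groups: it measured 14.1 ± 4.48 normalized reads in TAC and 13.1 ± 7.55 in sham at 1 week, 17.3 ± 6.38 in TAC and 6.09 ± 2.06 in sham at 4 weeks, and 8.77 ± 3.85 in TAC and 14.4 ± 7.50 in sham at 8 weeks. These values are the highest of 271 and are given with no p, and the weight of single libraries on them was not tested.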
